A study of Mus musculus with 2 samples.

Results

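The genes described here are 36 genes of homologous recombination, the Fanconi anemia pathway and the DNA damage checkpoint, measured in mouse primary hepatocytes with and without dynamin-related protein 1 (*Drp1*, gene symbol *Dnm1l*), the GTPase that divides mitochondria. They were chosen by name: every probe of the array whose gene name was on a written list was taken, whatever its value. The 36 names have 84 of the 56605 probes of the array, which carries 37074 gene names. Gene expression was measured on 1 array per genotype, so no difference had a replicate check and no test was possible.

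The control hepatocytes came from *Drp1* flox/flox mice, which the labels call wild type control, and the *Drp1*LiKO hepatocytes from *Alb-Cre* Tg/+ *Drp1* flox/flox mice. All mice were thus flox/flox for *Drp1*, and the controls were littermates without Cre. The albumin promoter drives Cre in hepatocytes, so the other cells of the liver keep *Drp1*. Hepatocytes were collected from the liver by slow centrifugation, cells that had not attached were discarded, and RNA was taken 24 h after seeding with no treatment. The study's methods describe purchased male C57BL/6J mice of young adult age, but the number, age and sex of the mice behind each array are not given in the sources used here.

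Homologous recombination repairs a double-strand break by copying the sister chromatid. Nucleases first resect the broken ends, replication protein A coats the single strand, and the BRCA1, PALB2 and BRCA2 proteins prepare it to invade the intact template. The Fanconi anemia proteins unhook crosslinks between the strands and hand the break to the same machinery, and the ATR and CHEK1 kinases hold the cell cycle meanwhile. Many of these genes are transcribed mostly in S and G2 phase, and resting hepatocytes of an adult liver seldom divide.

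Values are processed signals of each spot, corrected for background. Log2 ratios are *Drp1*LiKO minus control after the 75th percentile of each array, 313 in control and 356 in *Drp1*LiKO, was set equal, so equal signals on both arrays give a ratio of -0.18. The brightest probe stood for a gene. A Z score of -2, the threshold named for the study, lay at a log2 ratio of -1.31, or 2.48-fold lower. A probe was well above background on both arrays for 54 of the 84 probes, in control only for 4, in *Drp1*LiKO only for 3 and on neither for 23. The last have no ratio, and statements on the probes of a gene cover its detected probes.

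*Dnm1l* at its brightest probe read 2602 in control and 1217 in *Drp1*LiKO, a log2 ratio of -1.28. Whether it reads the deleted exon was not analysed here. Of 12 hepatocyte markers 11 were well above background on both arrays and *Pck1* in *Drp1*LiKO only. In *Drp1*LiKO 7 were higher, 4 of them by at least 1.5-fold, and 5 were lower, from *Trf* at a log2 ratio of -0.28 to *Ahsg* at 1.83, with signals of 12810 and 51568. *Alb* had 219613 and 266703. Markers of Kupffer cells and macrophages were higher in *Drp1*LiKO for 12 of 12 detected genes, their signals summing to 11113 in control and 28902 in *Drp1*LiKO, and *Timd4* not detected. Endothelial markers were higher for 6 of 6, with a summed signal of 4091 and 8222, and stellate cell markers for 4 of 5, with a median log2 ratio of 1.04 and *Lrat* not detected. Their summed signal, 21608 and 25259, was mostly that of *Acta2* (21437 and 24640). *Vsig4*, *Clec4f*, *Tek*, *Des*, *Pdgfrb* and *Col3a1* were well above background in *Drp1*LiKO only and were counted through that array alone. Well above background on both arrays were 10 Kupffer cell and macrophage, 5 endothelial and 2 stellate markers. With only such probes the stellate median was 0.53. Of the T cell markers *Cd3e* and *Cd4* were detected and *Cd3d* and *Cd8a* were not, and of the B cell markers *Cd79a* and *Cd79b* were not. The part of the other cell types in the results was not tested. Fewer cells of a type and less RNA per cell cannot be told apart in bulk samples.

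The array signal of most of the 36 genes was lower in *Drp1*LiKO hepatocytes. All 36 were detected on at least 1 array, 31 of them (86.1%) had a lower signal in *Drp1*LiKO and 5 a higher one, whereas 55.5% of the 20165 detected genes of the array were lower. The median log2 ratio was -0.55, with quartiles of -1.01 and -0.19, beside a median of -0.05 over all detected genes. Of the members, 18 (50.0%) were at least 1.5-fold lower, beside 10.3% of all genes, and 17 lay within 1.5-fold. *Mus81* was the 1 member at least 1.5-fold higher, beside 10.3% of all genes. *Fancd2* is in the counts of lower genes and passed the filter through the control array alone. With probes well above background on both arrays 85.7% of 35 members were lower, beside 56.4% of all genes. At that setting 17 were at least 1.5-fold lower, beside 8.42%.

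The Z score threshold was passed downward by 4 members (11.1%), *Rad54l*, *Exo1*, *Xrcc3* and *Brca1*, beside 2.81% of all genes. None passed it upward, beside 3.50% of all genes. Just inside it lay *Brca1* with a Z score of -2.10, and just outside lay *Bard1* (-1.996), *Fanci* (-1.94), *Palb2* (-1.92) and *Fancb* (-1.89). The number past this threshold depended on the setting, with 8 among probes well above background on both arrays, beside 2.34% of all genes at that setting, and 16 with a Z score scaled by the median absolute deviation, beside 7.16%.

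**Figure D1:**
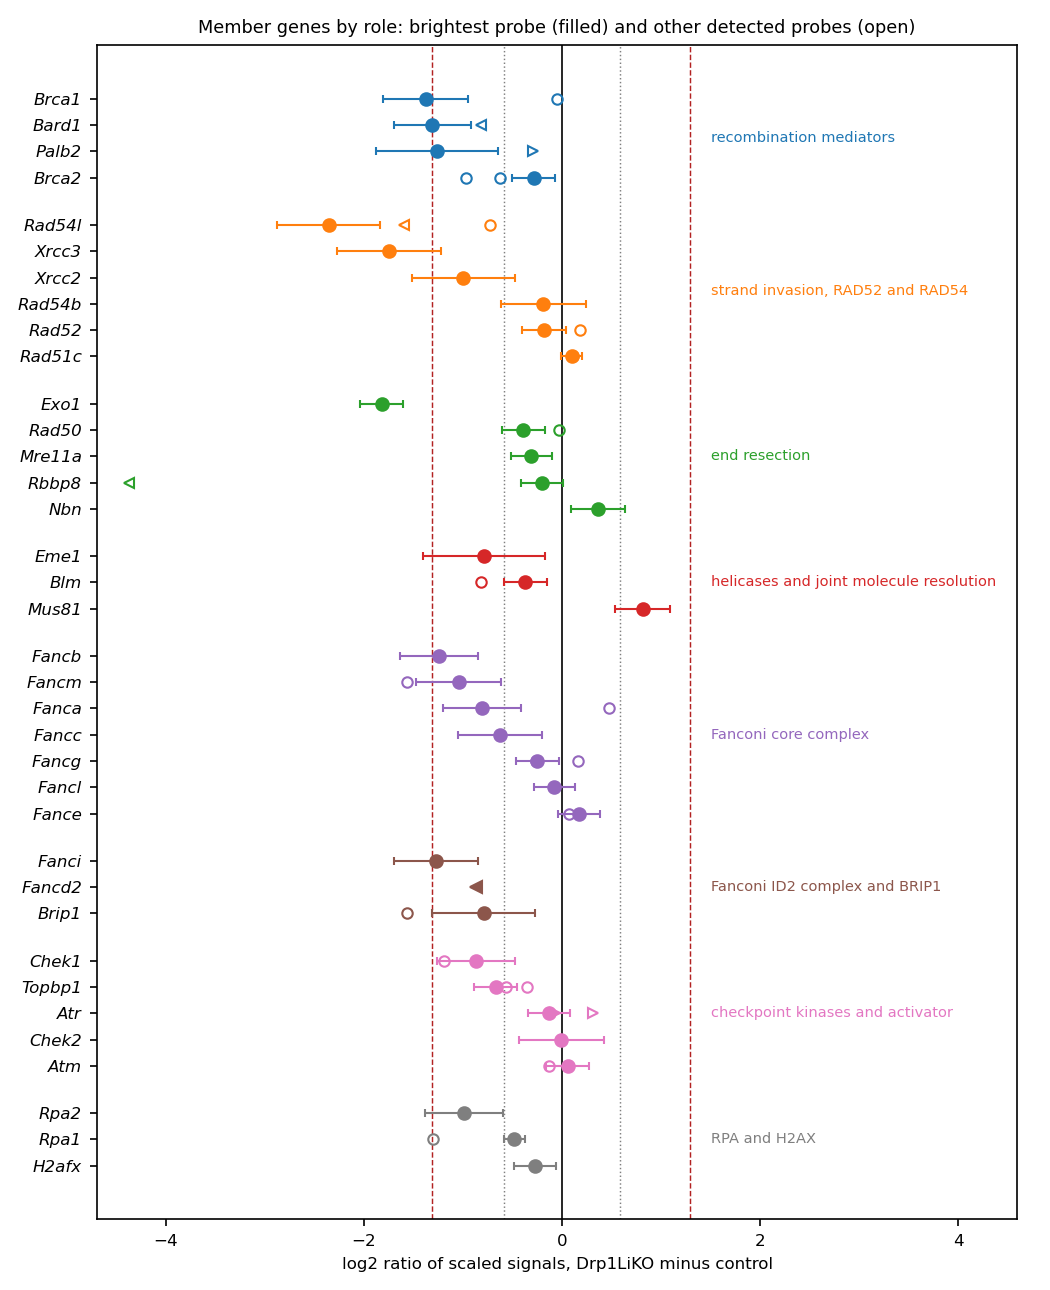
Log2 ratio of every detected probe of the 36 genes, grouped by role. Filled points are the brightest probe of a gene with bars of 2 times the spot noise, open points are its other probes, triangles are bounds where 1 array was not well above background, dotted lines mark 1.5-fold and dashed lines a Z score of -2 and 2. The filled points of 31 genes lie left of 0, and *Mus81* is the 1 right of 1.5-fold.

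The precision of a single ratio was judged from probes that are printed 10 times on each array. There are 300 of them, and those well above background were used. Their spot-to-spot spread, taken at the signal of each member, gave a noise of 0.05 to 0.31 on the log2 ratio. Most of these probes read above 4096, 265 in control and 266 in *Drp1*LiKO, where only *Rad51c* and *Rpa1* of the members lay. Each dimmer signal class rested on 3 to 9 probes per array, and under 64 on 3 in control and 7 in *Drp1*LiKO. The noise of most members is thus itself uncertain. At their brightest probe 27 members lay beyond 2 times this noise, 25 lower and 2 higher. With the larger error that the scanner software gives for each spot, 19 lay beyond 2 times the error, 18 lower and 1 higher. Both cover the array only, and not the spread between mice or cultures. The share of all detected genes beyond these limits is not given here. The counts therefore describe precision and are not a result about the members.

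The recombination mediators act on the resected end, and 3 of 4 were at least 1.5-fold lower, beside 10.3% of all genes. Their median log2 ratio was -1.28. *Brca1*, a ubiquitin ligase that promotes resection and recruits PALB2, read 208 in control and 90.8 in *Drp1*LiKO, a log2 ratio of -1.38. *Bard1*, its obligate partner, had 335 and 153, a log2 ratio of -1.31. *Palb2*, the bridge between BRCA1 and BRCA2, was dim, with 37.4 and 17.7 and a log2 ratio of -1.26. Its other detected probe had 16.9 in *Drp1*LiKO and was not well above background in control, at 17.7, which bounds its ratio at -0.29 or above. By the median of its probes the ratio of *Palb2* was -0.78, and with normexp background correction it was -0.50, within 1.5-fold. *Brca2*, the tumor suppressor that PALB2 recruits, differed least of the 4, with 488 and 454 and a log2 ratio of -0.29. Its other 2 probes were lower still in *Drp1*LiKO, with log2 ratios of -0.63 and -0.97. The second probe of *Brca1*, in contrast, had 66.4 and 72.6, a log2 ratio of -0.05, so the difference in *Brca1* was seen by 1 of its 2 detected probes.

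*Rad54l* encodes a motor protein that promotes strand invasion of the template, and by brightest probes it had the lowest ratio of the 36 genes. With normexp background correction its ratio was -1.15 and that of *Exo1* lower, at -1.63, and by the median of its probes it was -1.60. Its brightest probe read 126 in control and 28.1 in *Drp1*LiKO, a log2 ratio of -2.35, and 0.85% of all detected genes had a lower one. Of its other detected probes 1 had 30.5 and 20.9, a log2 ratio of -0.73, and 1 had 40.0 in control and was not well above background in *Drp1*LiKO, at least 3.03-fold lower. All 3 detected probes were thus lower in *Drp1*LiKO, by amounts that differed. *Xrcc3*, which forms a complex with RAD51C, had 85.0 and 28.7, a log2 ratio of -1.75. *Xrcc2*, of another complex with RAD51C, had 106 and 60.4, a log2 ratio of -0.998.

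The remaining genes of this class differed little. *Rad51c*, shared by both complexes, had 15630 and 18969, a log2 ratio of 0.10. Its second probe was far dimmer, with 23.3 and 28.5 and a ratio of 0.11, so its high signal rests on 1 probe. *Rad52*, an annealing protein, had 355 on both arrays, a log2 ratio of -0.18, and its second probe a ratio of 0.18. *Rad54b*, a relative of *Rad54l*, had 235 on both arrays, a log2 ratio of -0.19.

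Among the end resection genes *Exo1* stood apart from the others. This exonuclease, which also serves mismatch repair, read 966 in control and 311 in *Drp1*LiKO, a log2 ratio of -1.82. The MRE11 complex, which starts resection, lay within 1.5-fold for each of its subunits. *Mre11a*, its nuclease, had 1944 and 1778 (log2 ratio -0.31), and *Rad50*, its ATPase, had 850 and 735 (log2 ratio -0.39). *Nbn*, the subunit that binds ATM, had 245 and 357 and was higher in *Drp1*LiKO, with a log2 ratio of 0.36.

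*Rbbp8* encodes CtIP, the cofactor that switches the MRE11 nuclease on. Its brightest probe had 2904 and 2866, a log2 ratio of -0.20. Another probe under the same name, designed on the cDNA AK048254, had 273 in control and was not well above background in *Drp1*LiKO, at least 20.7-fold lower. This bound lay below every ratio measured on both arrays for a member probe, and the 2 probes do not describe the same change. No other probe of *Rbbp8* was detected.

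Helicases and nucleases that take apart joined chromosomes went in different directions. *Blm*, the Bloom syndrome helicase, had 331 and 290, a log2 ratio of -0.37, and -0.82 by its second probe. *Eme1* and *Mus81* encode the subunits of 1 endonuclease. *Eme1* had 59.3 in control and 38.9 in *Drp1*LiKO, a log2 ratio of -0.79. *Mus81* had 164 and 326, a log2 ratio of 0.81, the highest of the 36 genes, and 93.0% of all genes had a lower ratio.

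The Fanconi core complex ubiquitinates FANCD2 and FANCI, and 4 of its 7 genes were at least 1.5-fold lower, beside 10.3% of all genes. Their median log2 ratio over the 7 was -0.63. *Fancb*, a structural subunit of the catalytic module, had 482 in control and 231 in *Drp1*LiKO, a log2 ratio of -1.24. *Fancm*, the translocase that anchors the complex on DNA, had 174 and 95.9, a log2 ratio of -1.04. Its second probe, which spans an intron, had 127 and 48.9, a log2 ratio of -1.56. *Fancc*, of the module with FANCE, had 153 and 112, a log2 ratio of -0.63.

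*Fanca*, a subunit of the core, gave opposite values by its 2 detected probes. The brighter one had 279 in control and 181 in *Drp1*LiKO, a log2 ratio of -0.81. The other, which spans an intron, had 172 and 272, a log2 ratio of 0.48. Both ratios lay beyond 2 times the spot noise, so the direction of *Fanca* is not settled by this array. The intron-spanning probes of *Fanca* and *Fancm* are shown here because their ratios, of opposite sign, were the largest of the 4 intron-spanning probes detected. Those of *Rad52* (0.18) and *Fancg* (-0.26) were smaller. In mm9 they lie at chr8:125813811-125815354 on the minus strand (span 1544 bases) and at chr12:66193471-66194694 on the plus strand (span 1224 bases), the 60 bases being split over the ends of the span.
Fanca probe: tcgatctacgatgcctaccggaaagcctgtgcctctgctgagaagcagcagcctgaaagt
Fancm probe: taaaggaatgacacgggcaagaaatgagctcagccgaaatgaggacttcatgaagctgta

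The other core genes lay within 1.5-fold. *Fancl*, the E3 ligase subunit, had 1235 and 1329, a log2 ratio of -0.08. *Fance*, which contacts FANCD2, had 2230 and 2847, a log2 ratio of 0.17. *Fancg*, the partner of FANCA, had 576 and 550, a log2 ratio of -0.25, with 0.16 and -0.26 by its 2 dimmer probes.

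The targets of the core complex and the BRIP1 helicase were lower, 3 of 3 by at least 1.5-fold, beside 10.3% of all genes. Of these *Fancd2* was counted through the control array alone. This count depended on the setting. With normexp background correction *Fancd2* (-0.42) and *Brip1* (-0.46) lay within 1.5-fold, as did *Fancd2* (-0.20) with the deposited intensities. *Fanci* had 154 in control and 72.3 in *Drp1*LiKO, a log2 ratio of -1.27. *Fancd2*, its partner in the clamp, had 24.1 in control and was not well above background in *Drp1*LiKO, at least 1.82-fold lower. *Brip1*, which binds BRCA1, had 86.9 and 57.1, a log2 ratio of -0.79, and 79.4 and 30.4, a ratio of -1.57, by its second probe.

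Of the 5 checkpoint genes *Chek1* and *Topbp1* were at least 1.5-fold lower, beside 10.3% of all genes. *Chek1*, the effector kinase of ATR, had 276 in control and 171 in *Drp1*LiKO, a log2 ratio of -0.87, and -1.20 by its second probe. *Topbp1*, the activator of ATR, had 879 and 627, a log2 ratio of -0.67, with its other 2 detected probes at -0.35 and -0.57. All 5 detected probes of these 2 genes were lower in *Drp1*LiKO.

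*Atr* itself had 1377 and 1429, a log2 ratio of -0.13. *Atm*, the kinase of double-strand breaks, had 285 and 337, a log2 ratio of 0.06, and *Chek2*, its effector, had 95.2 and 108, a log2 ratio of -0.01. After scaling these 3 differed from control by at most 1.09-fold at their brightest probes.

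Replication protein A coats single-stranded DNA. *Rpa2* had 441 in control and 251 in *Drp1*LiKO, a log2 ratio of -0.99. *Rpa1*, the large subunit, had 12505 and 10161 by its brightest probe, a log2 ratio of -0.48, and 3622 and 1668, a ratio of -1.30, by a probe next to it. *H2afx*, the histone phosphorylated around breaks, had 3513 and 3295, a log2 ratio of -0.27.

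**Figure D2:**
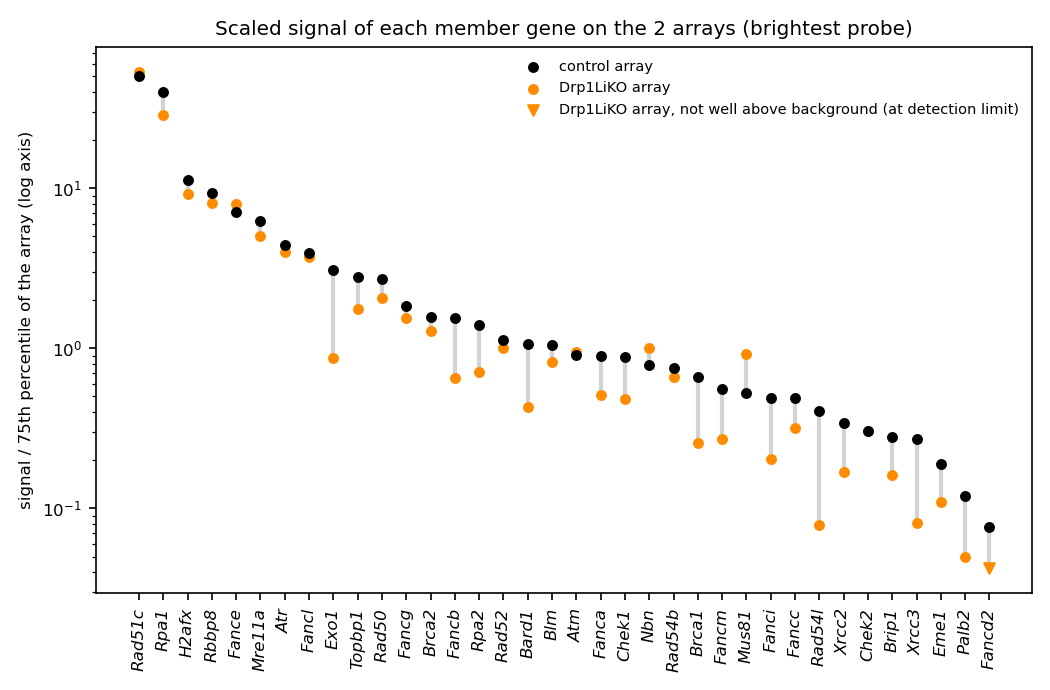
Signal of each member at its brightest probe, divided by the 75th percentile of its array, on a log axis. Black points are the control array, orange points the *Drp1*LiKO array, and the triangle is *Fancd2* at the detection limit. *Rad54l*, *Exo1* and *Xrcc3* have the longest downward distances, and *Mus81* the longest upward one.

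Probes of 1 gene gave a check on the choice of the brightest. Of the 61 detected probes 50 were lower in *Drp1*LiKO, beside 53.6% of all 30275 detected probes, and 8 passed the Z score threshold downward, beside 2.49%. The median of the 61 probes was -0.48. Of 16 genes with at least 2 probes well above background on both arrays, 12 had all of them on the same side of 0. The 4 with both signs were *Rad52*, *Fanca*, *Fancg* and *Atm*. Over the array, 71.4% of 6055 genes had their 2 brightest probes on the same side, and the distance between these probes had a median of 0.17 and a 90th percentile of 0.59. The probes of *Brca1*, *Fanca*, *Rpa1*, *Rad54l* and *Brip1* differed by more than that percentile.

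The lower ratios went with dimmer probes. Of 5 members with a mean signal under 64, all 5 were at least 1.5-fold lower, beside 19.1% of all genes at that signal. Among the 5 is *Fancd2*, counted through the control array alone. Between 64 and 256 it was 9 of 12, beside 12.3%, and between 256 and 1024 it was 4 of 11, beside 9.04%. Above 1024 it was 0 of 8, beside 4.07%. The median ratios in these classes were -1.26, -0.84, -0.37 and -0.17, whereas those of all genes lay between -0.05 and -0.03. Across the 36 genes the Spearman coefficient of mean signal and ratio was 0.53, and across all 20165 genes -0.003. Both measures share the *Drp1*LiKO signal, so a gene that is lower in *Drp1*LiKO also has a lower mean. The part of the signal level in these ratios was not tested.

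**Figure D3:**
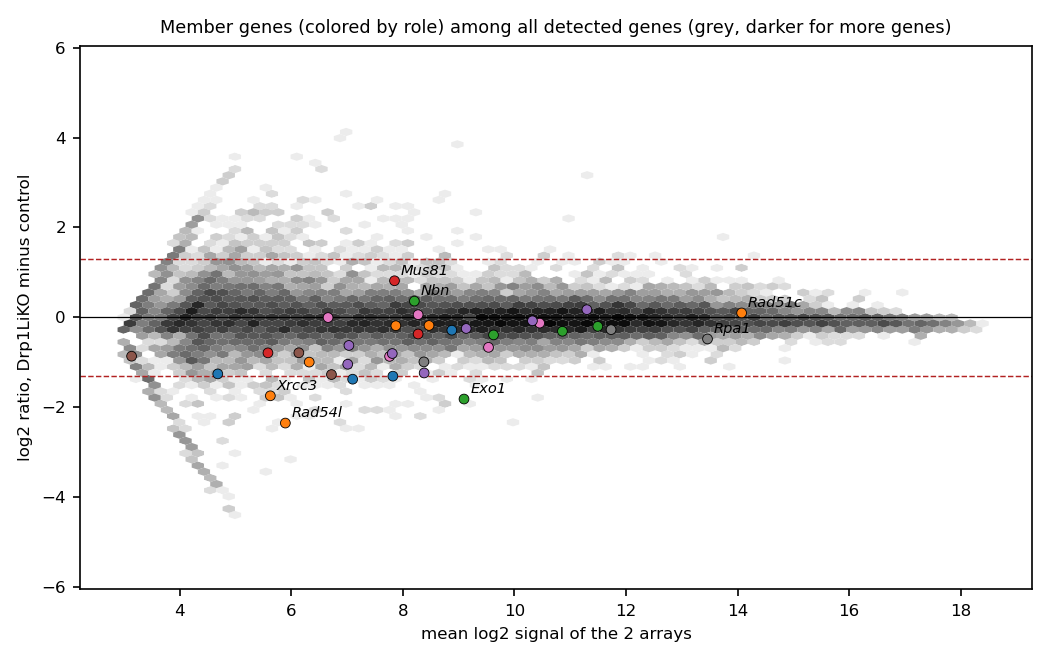
Log2 ratio against the mean log2 signal of the 2 arrays for all detected genes (grey, darker for more genes) and for the 36 members, with the role colors of the plot of probe ratios. Dashed lines mark a Z score of -2 and 2. *Exo1* lies below the lower line at an intermediate signal, and the brightest members, *Rad51c* and *Rpa1*, lie between 0.10 and -0.48.

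Genes of the same pathways outside the 36 showed smaller differences on the whole. Of 65 detected, 49 (75.4%) were lower, beside 55.5% of all genes, and their median log2 ratio was -0.18. At least 1.5-fold lower were 16 (24.6%), beside 10.3% of all genes. The members and these lists were chosen with earlier results of these data known, so the contrast can follow from that choice and was not tested. In recombination and resection 18 of 28 were lower, with a median of -0.09. Those past the Z score threshold included *Rad51ap1*, a cofactor of strand invasion (682 in control and 185 in *Drp1*LiKO, log2 ratio -2.07) and *Polq*, the polymerase of a backup end joining route (77.0 and 25.9, -1.76). *Rad51d* was the highest of that list, with 325 and 477 and a log2 ratio of 0.37.

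Of the other Fanconi genes 12 of 12 were lower, with a median of -0.28. The lowest was *Uhrf1*, which maintains DNA methylation and also binds crosslinks, with 4191 and 1808 and a log2 ratio of -1.40. The highest was *Rev3l*, the catalytic subunit of polymerase zeta, with a log2 ratio of -0.01. Of the other checkpoint genes 19 of 25 were lower, with a median of -0.18. The lowest was *Cdc25c*, the phosphatase that opens mitosis, with 70.7 and 27.4 and a log2 ratio of -1.55. The highest was *Rad9a*, of the clamp that recruits TOPBP1, with 275 and 542 and a log2 ratio of 0.80.

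Other repair routes are given for comparison. Of 10 end joining genes none was 1.5-fold lower, beside 10.3% of all genes, and the median was 0.00, from *Xrcc6* at -0.31 to *Dclre1c* at 0.46. Nucleotide excision repair had a median of -0.05 over 18 genes, from *Ercc2* at -0.38 to *Gtf2h1* at 0.45. Mismatch repair had a median of -0.33 over 7 genes, from *Msh6* at -0.52 to *Msh3* at 0.18, and none reached 1.5-fold. Base excision repair had a median of 0.03 over 19 genes, from *Neil3* (62.2 and 16.0, log2 ratio -2.14) to *Neil2* at 0.91. Of the 19, 1 (5.26%) was at least 1.5-fold lower and 2 (10.5%) higher, beside 10.3% of all genes in each direction. These lists are short and such shares lie near that of all genes, so they are not read as a trait of these routes.

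Replication and mitosis genes were lower throughout. All 30 replication genes were lower, beside 55.5% of all genes, with a median of -0.82. Of them 23 were at least 1.5-fold lower, beside 10.3%, and 6 passed the Z score threshold, beside 2.81%. The lowest was *Cdc6*, which loads the MCM helicase, with 731 and 227 and a log2 ratio of -1.87. All 19 mitosis genes were at least 1.5-fold lower and 16 passed the Z score threshold, with a median of -1.91, and *Ccna2*, cyclin A2, had 1203 and 273. Many of the 19, such as *Ccna2* and *Plk1*, are on the study's list of lowered mitotic genes, and so is *Cdc6*. That list came from these same arrays, so these values are no independent check. The median of the 36 members lay between those of the other repair lists and those of replication and mitosis.

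**Figure D4:**
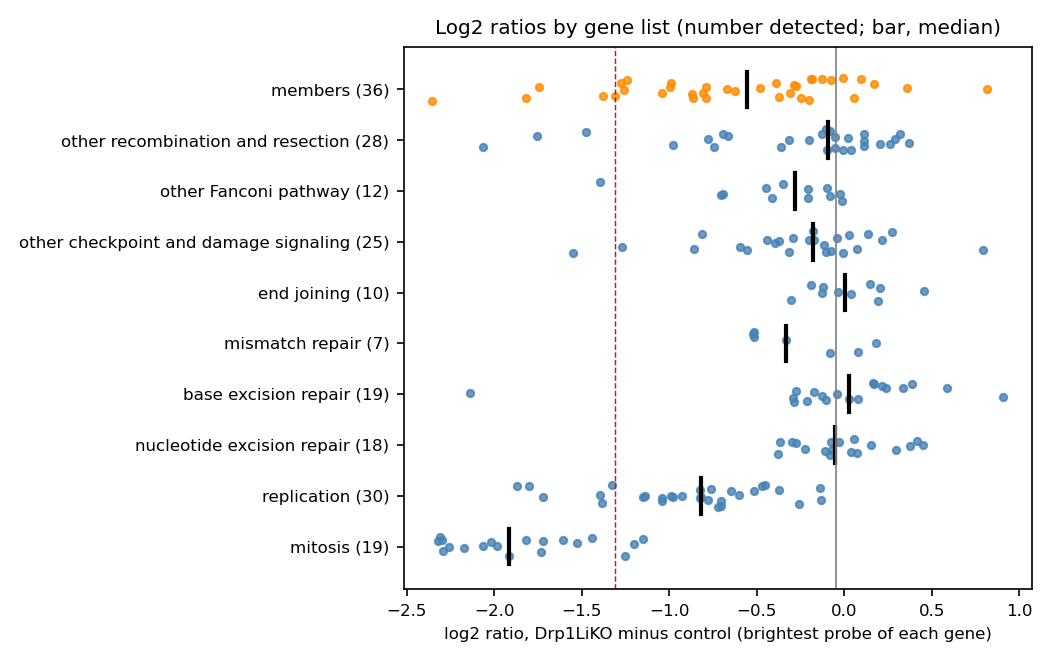
Log2 ratio of each detected gene, at its brightest probe, in the 36 members (orange) and in lists of other DNA repair, replication and mitosis genes (blue). Bars are medians, the grey line is the median of all genes and the dashed line a Z score of -2. The members spread from -2.35 to 0.81 with a median of -0.55, while end joining and nucleotide excision repair center near 0.

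Regulators of S phase and G2 transcription were lower too. Of 19 E2F and DREAM genes 17 were lower, beside 55.5% of all genes, and their median log2 ratio was -0.59. The Z score threshold was passed downward by 4, beside 2.81% of all genes. These were *E2f7* (343 and 61.5, log2 ratio -2.66), *Mybl2* (1411 and 378, -2.08), *Foxm1* (837 and 233, -2.03) and *E2f8* (388 and 128, -1.78). The members' promoters were therefore read for the E2F words TTTGGCGC, TTTCCCGC, TTTGCCGC and TTTCGCGC, the cell cycle element TTTGAA and the CCAAT box, on both strands. The window ran from 250 bases before to 50 after the start site in RefSeq, build GRCm38.p6, and 28 of the 36 genes had an entry.

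An E2F word stood in 6 of the 28 members (21.4%) and in 2.61% of all 27025 genes with an entry. The 6 were *Bard1*, *Brca2*, *Rad51c*, *Fancg*, *Chek2* and *Topbp1*, and no word overlapped another motif searched. Their ratios ran from -1.31 to 0.10 with a median of -0.27, while the 22 members without a word had a median of -0.79. Over the 11553 other detected genes with an entry the medians were -0.13 with a word and -0.04 without. Of these genes 15.6% with a word and 9.77% without were at least 1.5-fold lower. The word was thus more frequent among the members than among all genes. Members with the word had a higher median ratio than members without, whereas other detected genes with it had a lower median. *Bard1*, which held the word, ranked 5 from the lowest among all members. A link between the word and the ratio was not tested.

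The element TTTGAA stood in 2 of 28 members (7.14%), *Bard1* and *Eme1*, and in 20.2% of all genes. The CCAAT box stood in 16 of 28 (57.1%) and in 41.1% of all genes. Members with a CCAAT box had a median ratio of -0.80 and those without -0.27. Over the 11553 other detected genes with an entry both medians were near 0, at -0.05 and -0.04. *Xrcc3* held 6 CCAAT boxes.

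The 250 bases before the start site are shown for 4 genes with an E2F word that span the range of ratios, and for *Xrcc3*. *Bard1* (log2 ratio -1.31) lies at chr1:71102973-71103222 on the minus strand, *Topbp1* (-0.67) at chr9:103305077-103305326 on the plus strand, *Brca2* (-0.29) at chr5:150522371-150522620 on the plus strand, *Chek2* (-0.01) at chr5:110839733-110839982 on the plus strand and *Xrcc3* (-1.75) at chr12:111813880-111814129 on the minus strand. Capitals mark the E2F word in the first 4 and the CCAAT boxes in *Xrcc3*, read on either strand, and each line runs 5′ to 3′ toward the gene. *Bard1*, *Brca2* and *Chek2* hold the word TTTCCCGC from positions -209, -168 and -152, counted from the start site, and *Topbp1* holds TTTCGCGC from -129.
Bard1: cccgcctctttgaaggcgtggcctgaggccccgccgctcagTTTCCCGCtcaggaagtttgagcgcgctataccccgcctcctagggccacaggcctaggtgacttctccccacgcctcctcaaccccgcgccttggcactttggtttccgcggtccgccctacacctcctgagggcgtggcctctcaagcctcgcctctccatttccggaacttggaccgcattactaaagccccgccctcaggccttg
Topbp1: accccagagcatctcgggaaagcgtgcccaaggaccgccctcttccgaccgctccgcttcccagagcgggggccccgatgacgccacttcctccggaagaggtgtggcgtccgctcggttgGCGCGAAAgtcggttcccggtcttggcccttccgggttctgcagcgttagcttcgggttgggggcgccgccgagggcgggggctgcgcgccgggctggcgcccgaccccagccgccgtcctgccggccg
Brca2: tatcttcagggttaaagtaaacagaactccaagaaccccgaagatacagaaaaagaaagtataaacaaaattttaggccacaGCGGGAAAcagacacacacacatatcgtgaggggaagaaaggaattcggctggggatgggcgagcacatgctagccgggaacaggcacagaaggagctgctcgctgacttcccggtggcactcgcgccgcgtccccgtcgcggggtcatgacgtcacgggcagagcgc
Chek2: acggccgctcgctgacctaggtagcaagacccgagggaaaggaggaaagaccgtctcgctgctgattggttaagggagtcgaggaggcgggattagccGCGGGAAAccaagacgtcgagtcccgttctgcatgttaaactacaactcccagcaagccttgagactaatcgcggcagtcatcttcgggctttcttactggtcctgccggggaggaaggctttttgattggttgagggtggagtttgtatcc
Xrcc3: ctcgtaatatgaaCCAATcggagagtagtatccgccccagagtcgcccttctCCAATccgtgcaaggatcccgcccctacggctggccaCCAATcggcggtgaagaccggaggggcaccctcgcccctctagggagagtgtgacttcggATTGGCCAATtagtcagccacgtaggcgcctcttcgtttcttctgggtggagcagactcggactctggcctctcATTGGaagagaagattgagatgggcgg

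*Bard1* and *Chek2* thus carried the same word, on opposite strands, with log2 ratios of -1.31 and -0.01. These are matches of letters in a fixed window, and binding was not measured.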

How the data were processed

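RNA of 2 hepatocyte cultures was hybridized to Agilent 60-mer mouse arrays in 1 color. The authors deposited, per array, the Feature Extraction output with raw and processed intensity per spot. The labels name version 9.5.1.1 of that software. They also deposited a table of normalized intensities, by a method not given in the sources used here. Probe ranks in this table correlated with those of the array at 0.958 for *Drp1*LiKO and 1.00 for control, so it served as an alternative only.

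Control spots and spots marked as outliers were left out, the log2 of processed intensities was averaged over the spots of a probe and scaled to the 75th percentile of its array. A probe had to be well above background on either array, which kept 30275. Dimmer signals were raised to a floor, the dimmest signal called well above background (control 18.2, *Drp1*LiKO 15.0), and such ratios are bounds. Z scores used the mean and SD (0.65) of all kept probes. The number of arrays limits the precision. With 1 array per genotype no p-value was computed. Scripts were tested on simulated data. Alternatives were quantile normalization, normexp background correction (limma 3.58.1, R 4.3.3, offset 50), spike-in scaling, the deposited table, no floor, a stricter and no filter on dim probes, keeping outlier spots, the median of the probes of a gene and a robust Z score. Python 3.11.15 with numpy 2.4.6, pandas 2.3.3 and scipy 1.17.1 was used.

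The members and all lists were chosen with earlier results of these data known. All 36 members are described. Of the lists, the lowest gene, the highest gene or those past the Z score threshold are named, and *Dnm1l* as the targeted gene. Some items are not reported here. The single *Alb*, the 7 sequences of promoters and probes and other examples were chosen after their values were seen. Probe positions are in mm9, and exon or UTR status was not analysed here.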

Additional observations from a re-analysis of the deposited data

How the results depend on the processing

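Over all alternatives run, the median log2 ratio of the 36 genes lay between -0.37 and -0.63, and 30 to 32 of them were lower in *Drp1*LiKO. Where no step of the processing is named, the cause of the changes that follow was not tested. With normexp background correction the median was -0.37, 12 genes were at least 1.5-fold lower (beside 5.67% of all genes), and *Fanca* turned to 0.36. Under normexp the medians were -1.47 for mitosis, 1.75 for Kupffer cell and macrophage markers, 0.76 for endothelial and 0.61 for stellate markers. With the deposited normalized intensities 2 members were at least 1.5-fold higher, and the medians were 2.19 for Kupffer cell and macrophage, 1.00 for endothelial, 0.87 for stellate, -0.24 for T cell and -0.73 for B cell markers. With probes well above background on both arrays 8 members passed the Z score threshold downward and stellate markers had 0.53. Without a filter on dim probes stellate markers had 0.53 and B cell markers -0.47, and the median of all genes moved to -0.47, where 75.8% of all genes and 86.1% of members were lower. At this setting a probe below the floor on both arrays was set to the floor of each. The scaled floors themselves differ by -0.47. The share of all genes lower thus includes genes detected on neither array and is not a measured change. Without a floor the medians were 1.60 for endothelial, 1.33 for stellate and 1.93 for B cell markers, and 3 members passed the threshold. The robust Z score put 16 members past it downward, beside 7.16% of all genes, and 1 upward. *Rad54l* was not the lowest member with normexp (*Exo1*, -1.63), by the median of probes (*Rbbp8*, -2.29) or without a floor (*Fancd2*, -3.08). Of 323 single gene values 277 moved by less than the noise, 45 by more and 1 reversed, and 5 had the other sign, in *Fanca*, *Chek2*, *Rad51c*, *Rad52* and *Atm*. The stricter and the absent filter left each ratio they kept unchanged. The absent floor changed only *Fancd2*, and keeping outlier spots hardly moved any ratio. The 277 thus include many values that these settings left alone, and the tally is no measure of robustness. The low signal of *Palb2*, *Fancd2*, *Eme1* and *Rad54l* limits their ratios. No paired analysis was possible because each genotype had 1 array.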
